A study of Mus musculus with 10 samples.

Results

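MHC class I molecules display short peptides from inside the cell on its surface, and this report describes 10 genes of that pathway in the hippocampus of tau transgenic female mice with or without dihydrotestosterone (DHT). The genes were chosen by name for their roles, with earlier results of these data known. They are the heavy chains H2-K1, H2-D1 and H2-T23, the light chain B2m, and the peptide transporter and loading genes Tap1, Tap2 and Tapbp. The others are the immunoproteasome subunits Psmb8 and Psmb9 and the transactivator Nlrc5. These genes are 10 of the 56884 genes counted, and all 10 were among the 17622 genes with enough counts to test. The samples were 10 hippocampi, 1 RNA-seq library per mouse, from ovary-intact females that all carried the P301S (PS19) transgene, human 1N4R tau with the P301S mutation under the mouse Prnp promoter, on a mixed B6;C3 background. At 6 months of age, 5 mice received an empty subcutaneous SILASTIC implant (void mice 4, 5, 9, 10 and 11) and 5 received one filled with DHT powder over 10 mm (DHT mice 1, 2, 3, 5 and 6). Tissue was taken 12 weeks later, at 9 to 9.5 months, after perfusion with buffered saline. No nontransgenic mice, ovariectomized mice or males were part of the comparison, so every value below is from a tau-bearing female brain.

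In this pathway, proteins are cut by the proteasome, the peptides are pumped into the endoplasmic reticulum by the Tap1 and Tap2 transporter, and tapasin (Tapbp) holds empty heavy chains with beta-2 microglobulin (B2m) next to the transporter until a peptide fits. Interferons raise these genes in most cell types, and immunoproteasome subunits then take the place of the constitutive catalytic subunits. Nlrc5 acts at the promoters of class I genes. In the healthy brain class I genes are low and are found mainly in microglia and endothelial cells, and neurons also use them at synapses.

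The promoters of the heavy chains and of B2m are the part of this system in which the known control elements lie close together, so the letters before their transcription starts are shown first. The sequences are RefSeq's for GRCm38.p6, 250 bases that end at the base before the annotated start, written 5′ to 3′ on the gene's strand (for H2-K1, before the more upstream of its 2 annotated starts). RefSeq promoters were matched for 8 of the 10 genes. Capitals mark matches to the motifs searched on both strands: the interferon-stimulated response element (ISRE, a pair of GAAA blocks separated by any pair of bases), the gamma-activated site TTCNNNGAA, the NF-kB site, TGACGC (the core of the class I X2 box), CCAAT, the TR4 direct repeat and the androgen response element. The shorter GAANNGAAA, the core of the interferon element of the classical heavy chains, was added after the sequences had been seen.
H2-K1, chr17:34000348-34000597, minus strand: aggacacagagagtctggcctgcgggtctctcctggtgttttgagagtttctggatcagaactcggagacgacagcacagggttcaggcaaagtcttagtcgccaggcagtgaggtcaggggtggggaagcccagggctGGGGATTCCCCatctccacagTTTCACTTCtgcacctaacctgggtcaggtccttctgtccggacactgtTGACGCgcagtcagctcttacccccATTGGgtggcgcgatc
H2-D1, chr17:35262844-35263093, plus strand: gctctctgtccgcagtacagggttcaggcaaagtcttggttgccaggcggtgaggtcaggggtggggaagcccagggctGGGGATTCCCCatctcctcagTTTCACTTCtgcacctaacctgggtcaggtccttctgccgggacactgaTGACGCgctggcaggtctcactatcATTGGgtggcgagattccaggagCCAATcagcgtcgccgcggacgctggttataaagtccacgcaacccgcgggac
H2-T23, chr17:36032702-36032951, minus strand: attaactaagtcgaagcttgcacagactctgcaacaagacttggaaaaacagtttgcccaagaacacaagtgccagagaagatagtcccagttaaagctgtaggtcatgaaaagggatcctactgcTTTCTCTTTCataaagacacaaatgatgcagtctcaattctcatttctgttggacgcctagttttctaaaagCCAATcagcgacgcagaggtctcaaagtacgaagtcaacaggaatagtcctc
B2m, chr2:122147437-122147686, plus strand: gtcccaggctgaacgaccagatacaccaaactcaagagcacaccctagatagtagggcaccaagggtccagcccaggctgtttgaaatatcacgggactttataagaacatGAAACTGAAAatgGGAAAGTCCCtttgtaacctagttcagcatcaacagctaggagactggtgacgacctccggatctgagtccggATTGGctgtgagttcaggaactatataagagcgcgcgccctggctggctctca
Tap1, chr17:34187306-34187555, plus strand: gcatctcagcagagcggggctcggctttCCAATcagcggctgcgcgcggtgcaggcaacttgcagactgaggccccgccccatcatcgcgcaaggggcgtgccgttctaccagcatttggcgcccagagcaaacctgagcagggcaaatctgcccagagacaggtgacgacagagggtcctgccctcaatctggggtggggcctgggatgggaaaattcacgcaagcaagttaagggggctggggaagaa

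H2-K1 and H2-D1 carried the same order of blocks: the NF-kB match, then GAANNGAAA read on the other strand, then TGACGC, then CCAAT on the other strand. Over 177 aligned columns the H2-K1 and H2-D1 sequences were identical at 161 (91.0%). The NF-kB and GAANNGAAA matches lay apart by the same spacing in both, but farther from the annotated start in H2-D1 (first base at -171, against -111 in H2-K1). This distance depends on the start used, and from the other annotated start of H2-K1 it was -125. Before that other start, H2-K1 also held CCAAT from -6 to -2, and H2-D1 held one from -53 to -49. B2m held an ISRE from -139 to -130, just before an NF-kB match from -126 to -117, and H2-T23 held an ISRE on the other strand from -124 to -115. The Psmb8 promoter held a gamma-activated site from -97 to -89 and was the only one of the 8 without CCAAT. Tap1 and Psmb9 are neighbours that are read away from each other, and 225 of the 250 bases of their windows are the same stretch on opposite strands, in which CCAAT was the sole match.

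**Figure D1:**
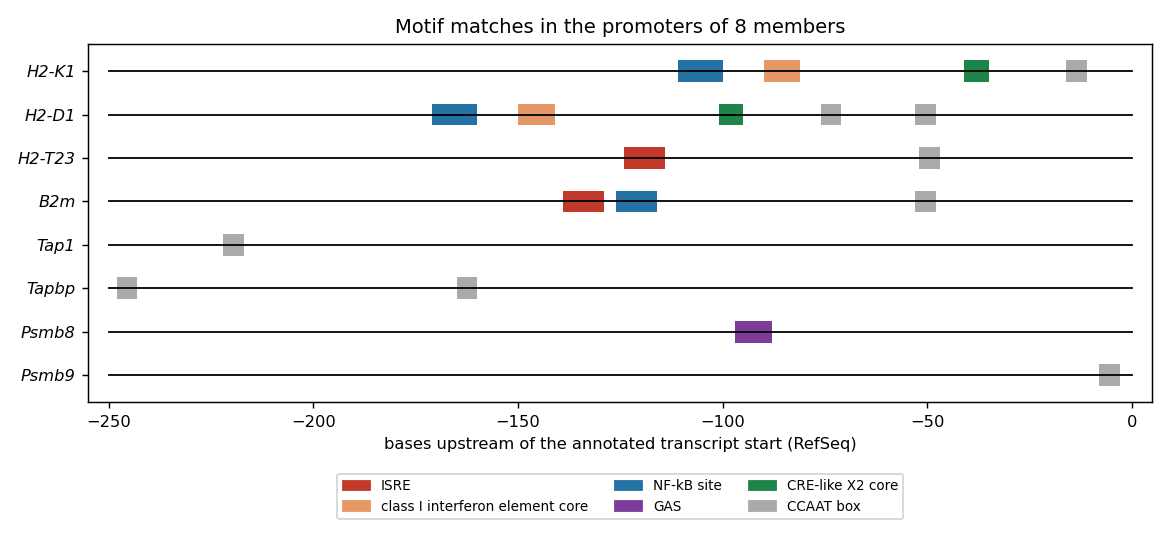
Positions of motif matches in the 250 bases before the annotated transcript start (0) of 8 class I presentation genes. The x axis gives bases upstream of the start, each row is 1 gene, and coloured blocks are matches on either strand. H2-K1 and H2-D1 share an order of NF-kB, interferon element core, TGACGC (labelled CRE-like X2 core) and CCAAT, and B2m has an ISRE beside an NF-kB site.

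Among all 27025 genes with a promoter in the table, 3.46% held an ISRE, 8.23% an NF-kB match, 8.13% a gamma-activated site, 6.93% TGACGC, 7.30% GAANNGAAA and 37.5% CCAAT in windows of the same length. Of the 8 promoters, 2 held an ISRE, 3 an NF-kB match, 1 a gamma-activated site, 2 TGACGC, 2 GAANNGAAA and 7 CCAAT. The 8 windows are not independent, because Tap1 and Psmb9 share 225 of 250 bases and so the same CCAAT. The TGACGC and GAANNGAAA matches are those of the similar H2-K1 and H2-D1. GAANNGAAA was also chosen after these sequences had been seen. No match to the TR4 direct repeat or the androgen response element was found in any of the 8 windows, and 0.0407% and 0.0111% of all promoters held them. A match describes letters and not binding, which was not measured here.

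Class I presentation genes were higher in the DHT mice. All 10 had a positive log2 fold change, and 7 (H2-K1, H2-D1, B2m, Tap1, Tapbp, Psmb8 and Nlrc5) passed an adjusted p under 0.05 in edgeR's quasi-likelihood test, adjusted over all genes tested by the Benjamini-Hochberg method. Over all 17622 genes, 5.22% passed in the upward direction. With the added limit of a log2 fold change above 1, H2-K1, Psmb8 and Nlrc5 passed, 3 of 10 against 2.17% of all genes. Every DHT mouse lay above every void mouse for B2m, Tap1 and Tapbp, 3 of 10 against 5.39% of all genes. The median log2 fold change was 0.90 over the 10 genes and 0.01 over all genes tested, and the summed level of the 10 ran from 135 to 189 CPM in the void mice and from 201 to 391.8 CPM in the DHT mice. CPM are counts scaled to a common library size with edgeR's TMM factors, and they compare a gene between mice, not one gene with another. Library totals were 27188854 to 47113661 counts in the void group and 33523527 to 45947784 in the DHT group, and the genes were counted from 24 times (Nlrc5, void mouse 11) to 8520 times (B2m, DHT mouse 3). The position numbers in the library names of all void mice precede those of all DHT mice, so the order of the libraries and the effect of the implant cannot be told apart.

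**Figure D2:**
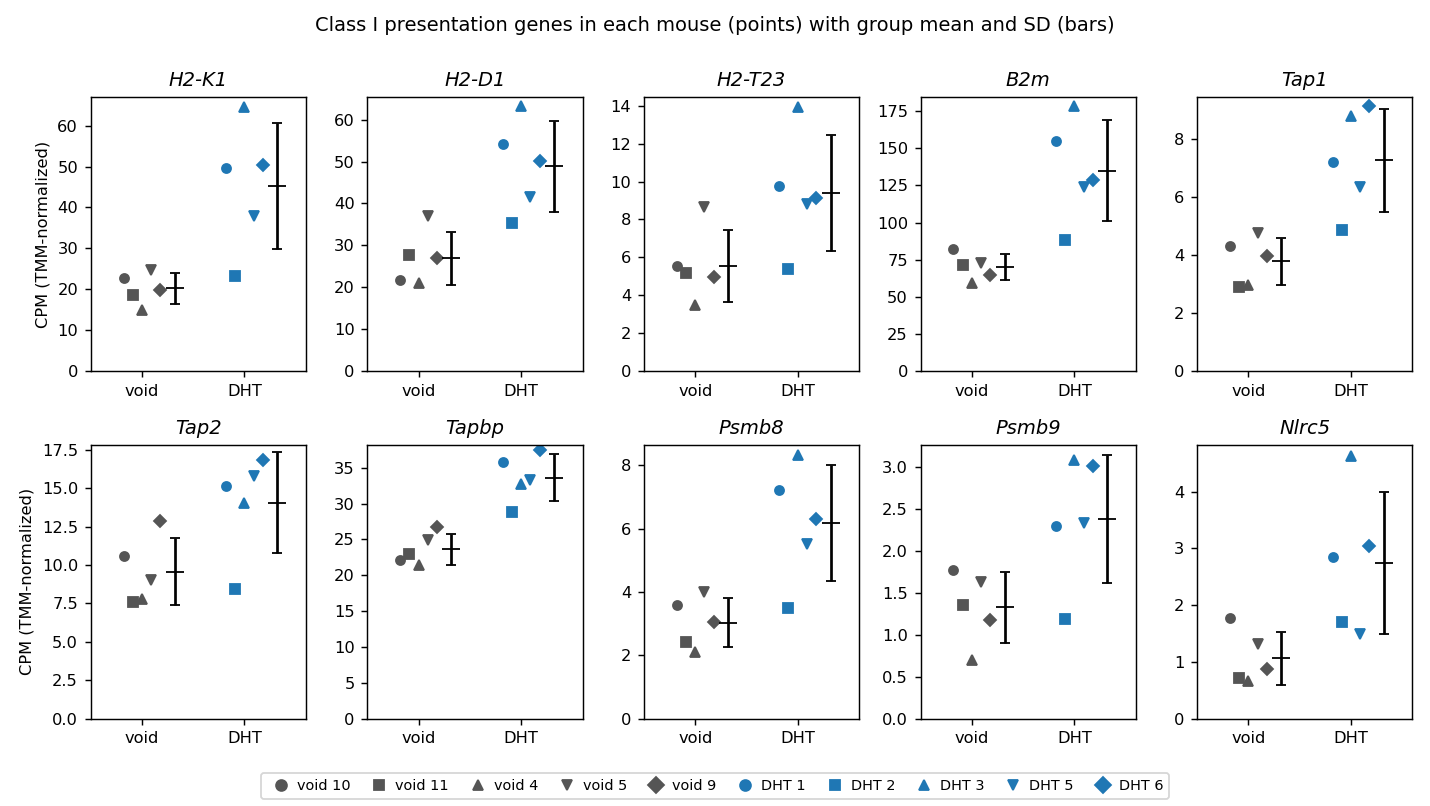
Normalized CPM (y axis, linear from 0) of the 10 class I presentation genes in each of the 5 void mice (grey) and 5 DHT mice (blue). Each symbol is 1 mouse, and the bars give the group mean and SD. B2m, Tap1 and Tapbp separate the groups completely, and DHT mouse 2 (blue square) is the lowest DHT mouse for 9 of the 10 genes.

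H2-K1 and H2-D1 encode the classical heavy chains that present peptides to CD8 T cells. H2-K1 was at 22.8, 18.7, 15.0, 24.7 and 19.9 CPM in void mice 10, 11, 4, 5 and 9, and at 49.7, 23.3, 64.5, 37.9 and 50.5 CPM in DHT mice 1, 2, 3, 5 and 6. DHT mouse 2 fell inside the void range and the other 4 DHT mice lay above it. The means were 20.2 ± 3.75 (SD, n = 5) and 45.2 ± 15.4 CPM (SD, n = 5), a log2 fold change of 1.16 (SE 0.23, adjusted p = 0.0137).

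H2-D1 was at 21.7, 27.6, 21.1, 37.1 and 27.05 CPM in the void mice in the same order, and at 54.2, 35.4, 63.2, 41.6 and 50.1 CPM in the DHT mice. Again 4 of 5 DHT mice lay above all void mice, with the overlap between void mouse 5 and DHT mouse 2. The log2 fold change was 0.86 (SE 0.18, adjusted p = 0.0163), from 26.9 ± 6.42 to 48.9 ± 10.8 CPM.

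H2-T23 encodes Qa-1, a nonclassical heavy chain that shows leader peptides of other class I proteins to the CD94 and NKG2 receptors of NK and T cells. Its values were 5.53, 5.18, 3.49, 8.66 and 4.96 CPM in the void mice and 9.78, 5.38, 13.9, 8.80 and 9.14 CPM in the DHT mice. Void mouse 5 stood almost level with DHT mouse 5, and DHT mouse 2 sat among the void mice. The log2 fold change of 0.76 (SE 0.26) did not pass (adjusted p = 0.123).

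B2m, the light chain of class I molecules, had the highest level of the 10 genes. It was at 82.5, 71.7, 59.5, 72.5 and 64.7 CPM in the void mice and at 155, 88.2, 178, 124 and 129 CPM in the DHT mice. The groups did not overlap, although DHT mouse 2 came within a few CPM of void mouse 10. The means of 70.2 ± 8.71 and 135 ± 34.0 CPM gave a log2 fold change of 0.94 (SE 0.16, adjusted p = 0.00931).

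The heavy chains were also set against their light chain within each mouse. In that comparison, the log2 ratio of H2-K1 to B2m was 0.19 higher in the DHT group (SE 0.13, exact permutation p = 0.183, adjusted p = 0.248 over 5 ratios, two-sided). The ratio of H2-D1 to B2m differed by -0.05 (SE 0.16, exact permutation p = 0.762, adjusted p = 0.762), with DHT mice from -1.57 to -1.31 inside the void range of -1.92 to -0.97. Neither difference was detectable beyond the spread between mice, and with 5 mice a group the smallest exact p is 0.00794.

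Tap1 and Tap2 together form the peptide transporter. Tap1 was at 4.32, 2.91, 2.96, 4.76 and 3.97 CPM in void mice 10, 11, 4, 5 and 9, and at 7.21, 4.86, 8.80, 6.34 and 9.14 CPM in DHT mice 1, 2, 3, 5 and 6. The groups did not overlap, by a narrow gap between void mouse 5 and DHT mouse 2, and the log2 fold change was 0.95 (SE 0.20, adjusted p = 0.0169).

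Tap2 was at 10.55, 7.61, 7.80, 9.01 and 12.8 CPM in the void mice and at 15.1, 8.46, 14.0, 15.8 and 16.9 CPM in the DHT mice. DHT mouse 2 stood below 3 void mice, and the other DHT mice lay close together above all of them. The log2 fold change of 0.56 (SE 0.19) did not pass (adjusted p = 0.130).

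Tapbp encodes tapasin, which bridges the transporter and the empty class I molecule. It was at 22.1, 22.9, 21.4, 24.9 and 26.7 CPM in the void mice and at 35.8, 28.8, 32.8, 33.2 and 37.4 CPM in the DHT mice. Its change was the smallest of the 10 on the log2 scale, 0.51 (SE 0.09, adjusted p = 0.00924), but the mice of each group lay so close together that the groups were apart and its adjusted p was the lowest of the 10.

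Psmb8 (LMP7) and Psmb9 (LMP2) are catalytic subunits of the immunoproteasome, which favours peptides with ends that class I molecules bind. Psmb8 was at 3.58, 2.43, 2.11, 3.99 and 3.04 CPM in the void mice and at 7.21, 3.48, 8.34, 5.51 and 6.31 CPM in the DHT mice. The overlap was again DHT mouse 2, and the log2 fold change was 1.03 (SE 0.24, adjusted p = 0.0260).

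Psmb9 was at 1.77, 1.35, 0.698, 1.63 and 1.18 CPM in the void mice and at 2.30, 1.18, 3.08, 2.33 and 3.01 CPM in the DHT mice. It rests on 33 to 51 counts in the void libraries and 48 to 147 in the DHT libraries, and DHT mouse 2 was level with void mouse 9. The log2 fold change of 0.86 (SE 0.29) did not pass (adjusted p = 0.118).

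Each immunoproteasome subunit takes the place of 1 constitutive subunit, so their ratio within a mouse describes the balance of the paired transcripts. The log2 ratio of Psmb8 to Psmb5 was -2.89, -3.05, -2.78, -2.60 and -3.22 in void mice 10, 11, 4, 5 and 9, and -0.96, -2.09, -1.502, -2.16 and -2.06 in DHT mice 1, 2, 3, 5 and 6. All 5 DHT mice lay above all void mice, DHT mouse 2 included, and the ratio was 2.23-fold higher (log2 difference 1.16, SE 0.25, exact permutation p = 0.00794, adjusted p = 0.0397, two-sided). Psmb5 itself ran from 14.9 to 28.9 CPM in the void mice and from 14.1 to 26.5 CPM in the DHT mice (log2 fold change -0.15, SE 0.21, adjusted p = 0.801), and its lowest values, in DHT mice 1 and 2 and void mouse 4, enter this ratio.

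The ratio of Psmb9 to Psmb6 was 0.73 higher on the log2 scale in the DHT mice (SE 0.32, exact permutation p = 0.0635, adjusted p = 0.159), with 4 of 5 DHT mice above all void mice. Psmb10 (MECL-1), the remaining immunoproteasome subunit, was 0.20 higher against Psmb7 on the log2 scale (SE 0.15, exact permutation p = 0.198, adjusted p = 0.248). Psmb6 and Psmb7 had log2 fold changes of 0.09 (SE 0.09, adjusted p = 0.670) and 0.02 (SE 0.05, adjusted p = 0.923). Psmb8 to Psmb5 was thus the ratio of the 5 that passed.

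**Figure D3:**
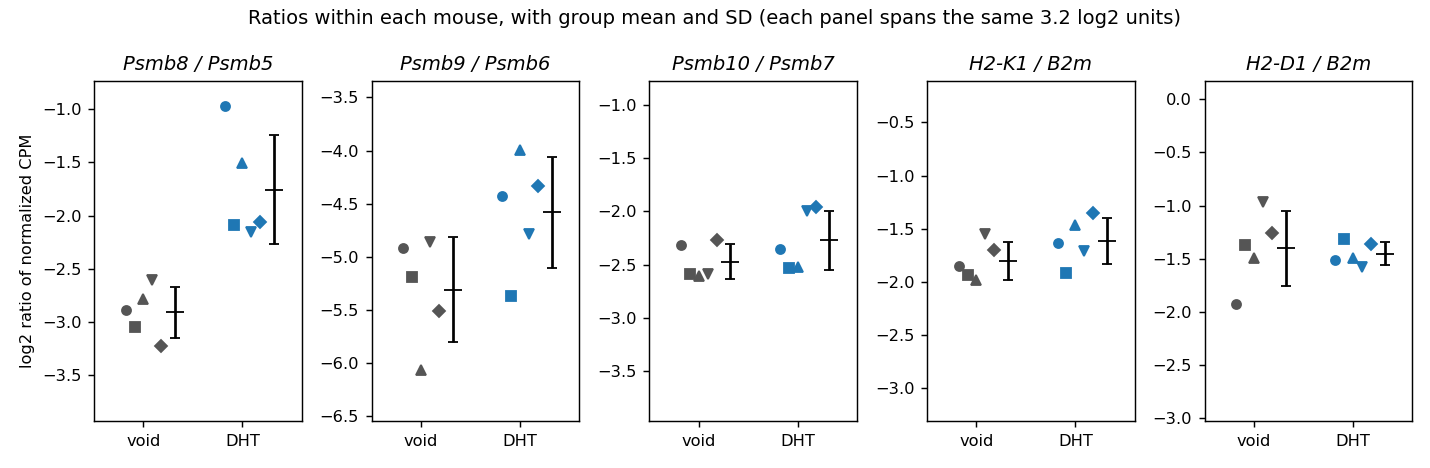
Log2 ratio of normalized CPM within each mouse (y axis, each panel spanning the same number of log2 units) for Psmb8/Psmb5, Psmb9/Psmb6, Psmb10/Psmb7, H2-K1/B2m and H2-D1/B2m in void (grey) and DHT (blue) mice. Symbols are mice and bars the group mean and SD. The groups are apart for Psmb8/Psmb5 and overlap in the other 4 panels.

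Nlrc5 is the transactivator that assembles with the RFX factors at class I promoters. It was at 1.77, 0.719, 0.655, 1.31 and 0.869 CPM in the void mice and at 2.84, 1.70, 4.63, 1.496 and 3.04 CPM in the DHT mice. DHT mice 2 and 5 lay below void mouse 10 and the other 3 above it. The log2 fold change of 1.39 (SE 0.35, adjusted p = 0.0402) was the largest of the 10 and the least precise, resting on 24 to 48 counts in the void libraries.

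Per kilobase of exon, which allows an approximate comparison between genes, B2m stood at 81.6 CPM per kb in the void group and 157 in the DHT group. H2-D1 followed at 10.43 and 18.97, H2-K1 at 6.89 and 15.4, and Tapbp at 6.51 and 9.26 CPM per kb. Light chain transcripts therefore exceeded those of either heavy chain in both groups, and the order of H2-D1, H2-K1 and Tapbp did not change. Tap2 (2.53 and 3.71), H2-T23 (1.93 and 3.26), Psmb8 (0.896 and 1.82), Tap1 (0.691 and 1.33), Psmb9 (0.362 and 0.650) and Nlrc5 (0.125 and 0.323 CPM per kb) came below. Neighbours that differed by less than the larger SD of the pair were H2-K1 and Tapbp in the void group, H2-D1 and H2-K1 in the DHT group, and Tap2 with H2-T23 and Psmb8 with Tap1 in both groups. The length used is the union of all annotated exons of a gene, 0.86 kb for B2m, 3.66 kb for Psmb9 and 5.48 kb for Tap1. It can exceed the length of the transcripts present, so the order of the genes depends on the annotation.

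The DHT mice differed among themselves in the same way for most of the genes. Against the void mean, the median of the 10 log2 differences was 1.31 in DHT mouse 3, 1.004 in DHT mouse 6, 0.99 in DHT mouse 1, 0.76 in DHT mouse 5 and 0.26 in DHT mouse 2. DHT mice 1, 3 and 6 lay above all void mice for all 10 genes, DHT mouse 5 for 9 and DHT mouse 2 for 3. Within the void group, mouse 4 was lowest for 8 genes and mouse 5 highest for 5. After subtraction of the group means, the 45 pairwise correlations over the 10 mice had a median Pearson r of 0.74, from 0.26 for Tapbp and Nlrc5 to 0.96 for H2-K1 and Psmb8. These correlations share libraries and normalization and are given as a description.

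**Figure D4:**
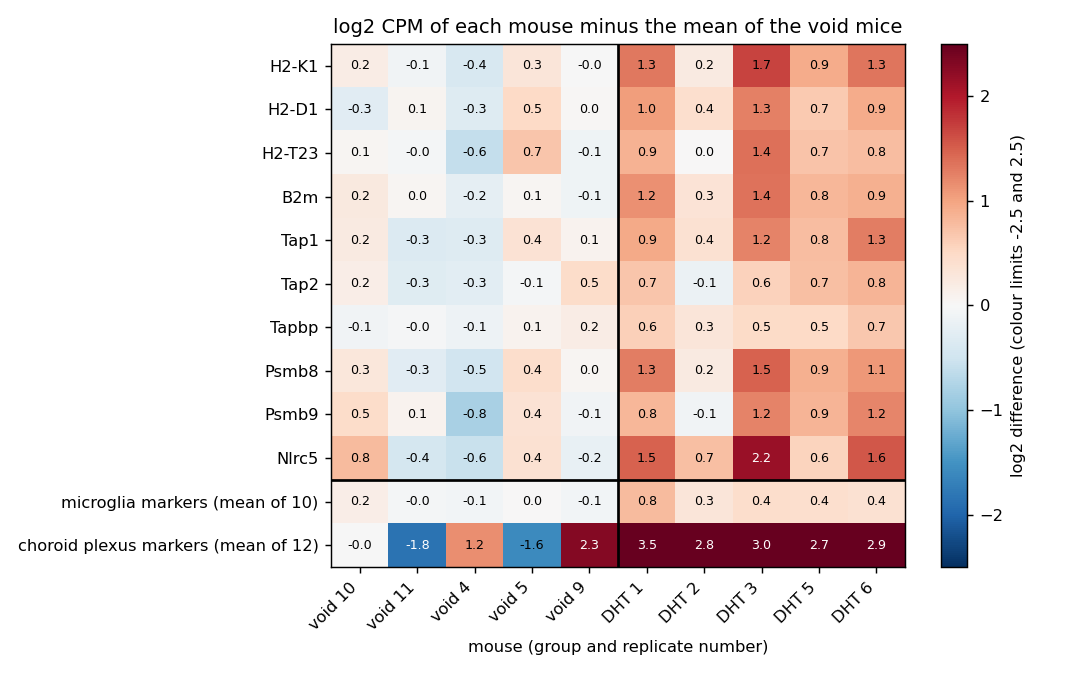
Log2 CPM of each mouse minus the mean of the void mice, for the 10 class I presentation genes and for the mean of the microglia and choroid plexus markers (rows below the line). Columns are mice, with the void mice left of the vertical line, and red is higher. DHT mouse 3 is the highest and DHT mouse 2 the lowest DHT mouse for most of the genes, whereas the choroid plexus markers are high in all 5 DHT mice, up to 3.50, beyond the end of the colour scale.

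Of the other genes of the pathway, 7 of 59 tested rose and 0 fell in edgeR's quasi-likelihood test (95 were listed and 87 were in the file). With DESeq2, 11 rose and 0 fell, and at an unadjusted p under 0.05 in edgeR 17 rose and 0 fell. Over all genes, edgeR called 920 of 17622 (5.22%) higher. DESeq2 called 1228 higher among all 56884 genes in the file, of which 35326 had a count in any library. That DESeq2 total includes genes without counts, so its share is not like that of the filtered genes in each list. An unadjusted p under 0.05 in edgeR, in either direction, was reached by 3059 of 17622 genes. These shares stand beside the counts of each list below. The 59 genes had a median log2 fold change of 0.11. Among the other heavy chains of the H2 region, 1 of 8 tested rose. H2-T24, a nonclassical heavy chain, went from 3.62, 2.97, 3.13, 2.62 and 2.64 CPM in the void mice to 11.2, 6.39, 8.15, 5.12 and 8.81 CPM in the DHT mice. Its log2 fold change was 1.41 (SE 0.20, adjusted p = 0.00670) with the groups apart, DHT mouse 2 included. A further 18 heavy chain genes of the region were in the file but not tested, 8 of them without a count in any library.

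Of the class I-like molecules encoded elsewhere, 2 of 5 tested rose. Hfe, which regulates iron uptake, went from 4.06 to 6.67 CPM across the void mice to 7.06 to 11.7 CPM across the DHT mice (log2 fold change 0.92, SE 0.17, adjusted p = 0.0104). Mr1, which presents vitamin B metabolites to MAIT cells, went from 8.26 to 11.6 CPM to 13.01 to 19.2 CPM (0.64, SE 0.12, adjusted p = 0.0117). The groups were apart for both.

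Of the receptors that bind class I and their relatives, 2 of 3 tested rose. Pirb, an inhibitory receptor for class I on myeloid cells and neurons, went from 0.320 to 0.959 CPM to 0.864 to 1.64 CPM (1.09, SE 0.29, adjusted p = 0.0494), with an overlap. Lilrb4a, an inhibitory myeloid receptor of the same wider family, was at 0.106 to 0.258 CPM in the void mice and 0.476 to 1.36 CPM in the DHT mice (2.12, SE 0.40, adjusted p = 0.0121).

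The general machinery around the loading step did not pass the test. None of the 8 other loading and trimming factors was called in edgeR's quasi-likelihood test (3 at an unadjusted p under 0.05 and 2 with DESeq2, all higher). The lowest adjusted p among them was 0.0680, for the proteasome activator Psme2 (log2 fold change 0.29, SE 0.08). Next came Erap1 (0.40, SE 0.12, adjusted p = 0.0783) and Psme1 (0.24, SE 0.07, adjusted p = 0.0795). The chaperones calreticulin (Calr, -0.03, SE 0.07), calnexin (Canx, -0.00, SE 0.07) and ERp57 (Pdia3, 0.06, SE 0.09), named here after their values were seen, were all within their standard errors of 0 and changed sign with the scaling, the covariate or the mice included. None of the 14 constitutive proteasome subunits was called by edgeR or DESeq2 (1 at an unadjusted p under 0.05), with a median log2 fold change of 0.06 and the lowest adjusted p, 0.270, for Psmb2 (0.19, SE 0.08).

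Of 14 transcriptional regulators of class I genes, 2 rose and 0 fell. Irf9, the DNA-binding part of the interferon-activated complex that binds ISREs, went from 7.71, 7.28, 7.19, 8.63 and 8.53 CPM in the void mice to 17.2, 11.1, 22.2, 13.9 and 17.3 CPM in the DHT mice (1.06, SE 0.16, adjusted p = 0.00761). Nfkb1, which gives the p50 subunit of NF-kB, went from 17.99 to 19.3 CPM to 21.9 to 25.2 CPM (0.33, SE 0.06, adjusted p = 0.0117). Both had their groups apart. None of the 7 interferon receptors and kinases tested was called by edgeR or DESeq2 (1 at an unadjusted p under 0.05), the lowest adjusted p being 0.167 for Ifngr1 (0.24, SE 0.09). The ligands Ifng and Ifnb1 reached at most 0.0419 and 0.0209 CPM in any library, too low to test.

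**Figure D5:**
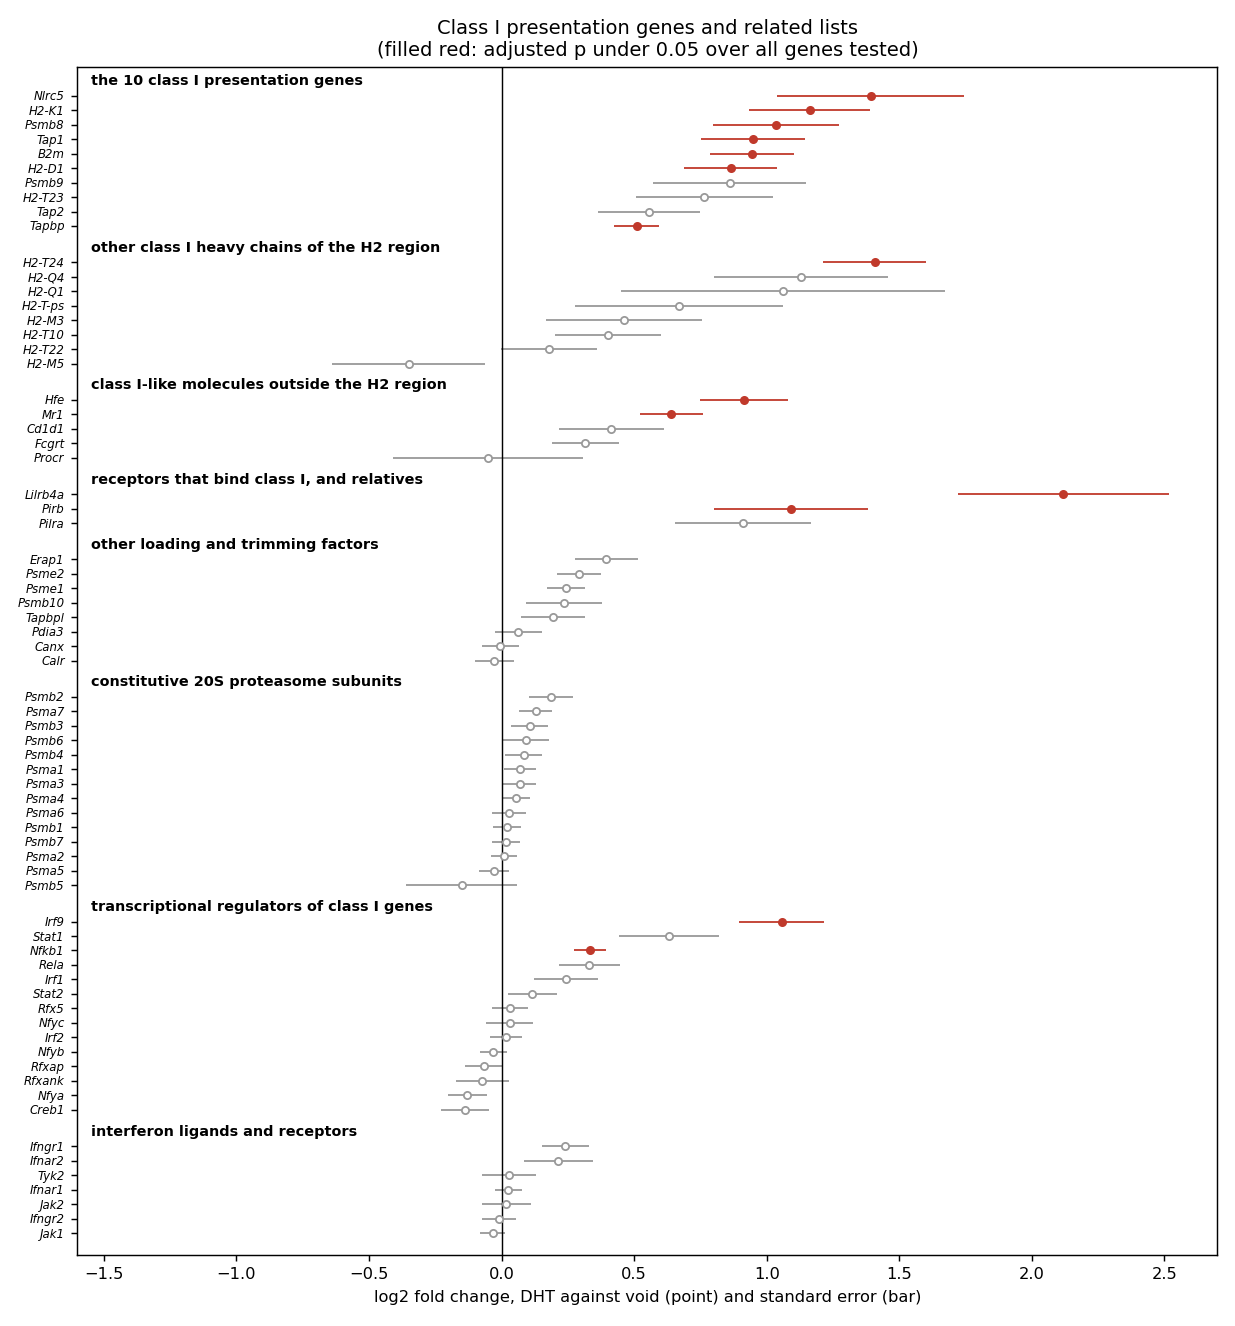
Log2 fold change of DHT against void mice (x axis, points) with its standard error (bars) for the tested genes of each list, among them the 10 class I presentation genes at the top. Filled red points have an adjusted p under 0.05 over all genes tested in edgeR's quasi-likelihood test. The 10 genes all lie above 0, with 7 filled, while the constitutive proteasome subunits cluster around 0 with none filled.

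Several cell type markers moved with these genes. In bulk tissue, more cells of a type and more RNA per cell cannot be told apart. Of the microglia markers, 5 of 10 rose (against 5.22% of all genes), Csf1r and Cx3cr1 among them, with a median log2 fold change of 0.46. Their summed level was 446 to 517 CPM in the void mice and 617 to 873 CPM in the DHT mice. By mouse, the mean of the microglia markers lay 0.79 above the void mean in DHT mouse 1, 0.45 in DHT mouse 3, 0.43 in DHT mouse 5, 0.39 in DHT mouse 6 and 0.30 in DHT mouse 2. DHT mouse 2 was thus lowest of its group for the microglia markers as for 9 of the 10 class I genes, while the highest DHT mouse was mouse 1 for the markers and mouse 3 for 7 of the class I genes. With that mean as a covariate, the median log2 fold change of the 10 genes was 0.38, all 10 were still positive, 1 had an unadjusted p under 0.05 in edgeR and 0 were called. In that fit 0 of all genes were called and 361 had an unadjusted p under 0.05. The mean of the markers was 4.86 to 5.11 log2 CPM in the void mice and 5.23 to 5.73 in the DHT mice, without overlap. The covariate and the implant can therefore not be fully told apart in this fit.

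Choroid plexus markers were higher by a median of 2.18 on the log2 scale, with 5 of 12 called (against 5.22% of all genes called higher). Their summed level ran from 115 to 1875 CPM in the void mice and from 2161 to 3086 CPM in the DHT mice. With their mean as a covariate, the median log2 fold change of the 10 genes was 1.12, 9 had an unadjusted p under 0.05 in edgeR and 0 were called. In that fit 0 of all genes were called and 1174 had an unadjusted p under 0.05. The mean of these markers was 1.57 to 5.70 log2 CPM in the void mice and 6.12 to 6.91 in the DHT mice. It did not overlap either, so covariate and implant can again not be fully told apart. Against the void mean of these markers, DHT mouse 2, lowest for most class I genes, was 2.81 higher on the log2 scale. The other DHT mice were 2.71 to 3.50 higher. T and NK cell markers summed to 0.959 to 1.55 CPM in the void mice and 1.35 to 2.64 CPM in the DHT mice. Of the 10, only Cd4 and Trac had enough counts to test, and neither was called by either tool or had an unadjusted p under 0.05. The other 8 had few counts, and Cd3d, Cd3g and Nkg7 were higher in every DHT mouse than in every void mouse by CPM. Cd8a, a marker of CD8 T cells, had 0 to 6 counts in the void libraries and 4 to 23 in the DHT libraries, Cd3g 0 to 3 and 4 to 10, and Nkg7 0 to 3 and 4 to 6. The part of these cells in the result was not tested. None of the 8 endothelial markers was called by edgeR or DESeq2, and none had an unadjusted p under 0.05 (median log2 fold change -0.03). Of 8 astrocyte markers 1 was called higher in edgeR, and of 8 oligodendrocyte markers 0 were (medians 0.09 and 0.19). In each of these lists 3 were higher at an unadjusted p under 0.05 in edgeR. No tested border macrophage, meningeal fibroblast, neuron or red blood cell marker was called by edgeR or DESeq2.

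The H2 region of the mice was also examined, because B6 and C3H mice carry different H2 haplotypes and the H2 genotype of these mice is not given in the sources used here. H2-Ea-ps, which the b haplotype of B6 does not transcribe, had 9 counts in void mouse 10 and 0 in the other 4 void mice. In the DHT mice it had 88, 0, 126, 97 and 39 counts in mice 1, 2, 3, 5 and 6, and a count of 0 allows up to 0.0637 to 0.0968 CPM (3 counts) in these libraries. DHT mouse 2, the DHT mouse lowest for 9 of the 10 class I genes, was thus also the DHT mouse without H2-Ea-ps counts. The class II genes H2-Aa, H2-Ab1 and H2-Eb1 rose with their groups apart, by 2.83 (SE 0.40), 2.68 (SE 0.38) and 2.14 (SE 0.29) on the log2 scale (adjusted p = 0.00670 each), and DHT mouse 2 was also their lowest DHT mouse. Of the 10 class I genes, 8 lie on chromosome 17, where the H2 region is, whereas B2m is on chromosome 2 and Nlrc5 on chromosome 8. The part of the H2 haplotype in the result was not tested.

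The counts depended on single mice. Without DHT mouse 2, all 10 genes passed, as did 5.76% of all genes in the upward direction. In that set of mice 9 genes, all but Nlrc5, separated the groups, as did 7.93% of all genes. Without void mouse 11, B2m and Tapbp alone of the 10 passed, with 1.97% of all genes. Without void mouse 4 or without DHT mouse 1, 4 genes passed, with 2.77% and 2.23% of all genes. Without void mouse 5, the groups were apart for 5 genes and for 7.01% of all genes. B2m and Tapbp passed whichever mouse was left out, H2-K1 in 9 of 10 fits, H2-D1 and Tap1 in 8, Psmb8 in 6 and Nlrc5 in 3.

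Reads of related genes limit how far the heavy chains can be told apart. Of the 100-base stretches in the annotated transcripts, 0.957% of H2-K1, 3.59% of H2-D1 and 3.15% of H2-T23 were identical to another gene, and none of B2m or H2-T24. These transcripts are those of the reference genome, and the H2 haplotypes of the mice are not known. How reads from other H2 alleles were assigned was not tested. Tapbp shares 24.9% of its exon bases with Gm19412 on the opposite strand, which had 26 to 57 counts a library. It also shares 4.11% with Zbtb22 on the same strand, which had 791 to 1326 counts. Antisense genes cover 14.1% of the exon bases of Tap2 (Gm15821, 0 to 8 counts) and 14.7% of those of Psmb8 (Gm20496, 0 to 5 counts), and Tap1 and Psmb9 overlap by 212 exon bases on opposite strands. The strand setting of the counting is not given in the sources used here.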

How the data were processed

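Hippocampal poly(A) RNA of 10 mice was sequenced as 100-base read pairs, 1 library per mouse. The authors trimmed the reads with HTStream, mapped them with STAR 2.7.10b and deposited raw counts per gene, which are not normalized. Their methods name the mm10 genome while the submitters' processing notes name mm39 and GRCm39, so the build behind the counts is not settled. Exon lengths, exon overlaps and chromosomes given here come from GENCODE M21, which may differ from the annotation used for counting. The counting program and the handling of reads that match several genes are not given in the sources used here.

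From these counts, 51948 of 56884 genes carried a symbol (the rest held 0.327 to 0.436% of counts and stayed in the totals). DHT was compared with void in edgeR 4.0.16 (quasi-likelihood test, TMM, filterByExpr) over 17622 genes with Benjamini-Hochberg adjustment, a call being an adjusted p under 0.05. The SE of a log2 fold change was taken as its size over the root of the test's F. CPM and exon lengths (GENCODE M21) served as descriptions, with a prior count of 2 on the log2 scale, and 5 within-mouse ratios were compared by exact permutation. The code was tested on simulated data. Groups came from the sample titles, and the samples are separate mice. The genes and lists were chosen with earlier results of these data known. From each other list the called genes (up to 6) or the one with the smallest p were named, with Psmb5, Psmb6, Psmb7, the H2 haplotype genes and the 5 genes most correlated with the 10. Alternatives were DESeq2 1.42.0, other size factors and filters, 2 covariates and leaving out each mouse. Counts below about 50 limit Psmb9 and Nlrc5.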

Additional observations from a re-analysis of the deposited data

Results flagged for a closer look

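Among 72 sets of 5 values examined for a single mouse far from the others, 2 had one, and chance alone gives about 1 in 20, or 3.6 here. The first was Tap2, where DHT mouse 2 was lowest and its gap to the next DHT mouse took up 0.734 of the group's range on the log2 scale. The other was H2-Eb1, a class II gene, where DHT mouse 2 was again lowest, with a gap of 0.719 of the range.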

How the results depend on the processing

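No paired analysis was possible because replicate number 5 alone occurs in both groups. All 10 genes had a positive log2 fold change under every alternative, and of 170 values for them 135 kept their side of the threshold. The number called was 7 with edgeR under either other normalization and either other filter and 8 with DESeq2 (H2-T23 added, adjusted p = 0.0446). It was 0 with the choroid plexus or the microglia covariate, as were the number past both limits and the number of other pathway genes called (11 with DESeq2), and no gene of the whole table was called in those fits. Leaving out each mouse gave 2 to 10 genes called, 0 to 6 past both limits, 3 to 9 with groups apart and 5 to 11 other pathway genes. No gene was past both limits without void mouse 11 or DHT mouse 3. The Psmb8 to Psmb5 difference was 0.96 to 1.26 with a mouse left out, where its smallest adjusted p is 0.0794 unless another ratio is as small. The Psmb9 to Psmb6 difference was 0.54 to 0.92 and passed without DHT mouse 2. The sign changed for values near 0: Psmb5 (0.0397 with the microglia covariate), Psmb7 (-0.0109 with DESeq2, -0.0106 with its size factors in edgeR, -0.0481 to 0.0355 with a mouse left out), Canx (0.00738 with library size alone, 0.00508 with the choroid plexus covariate, -0.0642 to 0.0379), Pdia3 (-0.0226 with the choroid plexus and -0.0518 with the microglia covariate, -0.0158 to 0.128), Psmb6 (-0.00917 to 0.123), Calr (-0.0858 to 0.0142) and the H2-D1 to B2m ratio (-0.179 to 0.0605). The causes were not tested.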

Other observations

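The 5 genes that followed the 10 most closely from mouse to mouse, after subtraction of the group means, were H2-Q4, Fcrls, Isg15, Aspg and Usp18. Of 14826 genes ranked over the 10 mice by Pearson correlation with the mean of the 10, H2-Q4 (r = 0.96), another class I heavy chain, came first, followed by Fcrls (r = 0.96), a microglial Fc receptor-like gene. H2-Q4 went from 3.99 ± 1.09 to 8.67 ± 4.26 CPM (log2 fold change 1.13, SE 0.33, adjusted p = 0.0712 in edgeR's quasi-likelihood test), and 14.1% of its 100-base stretches are shared with other genes. Fcrls, which is also among the microglia markers used as a covariate, did not pass either (0.38, SE 0.27, adjusted p = 0.543). Isg15, an interferon-induced ubiquitin-like protein (r = 0.95), rose by 2.15 (SE 0.41, adjusted p = 0.0122), Usp18, the protease that removes it (r = 0.94), by 2.42 (SE 0.34, adjusted p = 0.00670), and Aspg, an asparaginase (r = 0.95), by 1.31 (SE 0.29, adjusted p = 0.0229). These correlations come from the same libraries and are a description.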
